A study of Homo sapiens with 6 samples.

Results

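The genes described here are 10 feedback regulators and targets of Wnt signalling that are also used as markers of the intestinal crypt base, namely AXIN2, LGR5, ASCL2, NKD1, RNF43, ZNRF3, SP5, LEF1, EPHB2 and CD44. They were chosen by name, and every probe set that the platform annotation assigns to exactly 1 of these symbols was taken. That gave 30 probe sets for 9 of the 10 genes, out of 54675 probe sets on the array and 19775 genes with a single-gene probe set. EPHB2 had no such probe set in the annotation used and was not analysed here.

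Total RNA of SW480, an established line of human colorectal cancer cells, was measured on Affymetrix HG-U133 Plus 2.0 arrays. 3 arrays are labelled as SW480 cells overexpressing CPEB3 after transfection, a protein that binds RNA and controls translation through cytoplasmic polyadenylation elements, and 3 as cells transfected with a negative control (NC). Both groups were kept in the same serum-containing medium, and the sources used here give neither the vectors, the time after transfection nor whether the cells are clones. The line carries a truncated APC, so both groups start from active beta-catenin. The replicates are called biological without a culture or day, so the p-values reflect variation among these arrays, which may be technical.

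In the Wnt pathway, ligands bound to Frizzled and LRP receptors stop a destruction complex of APC, AXIN and GSK3 from degrading beta-catenin, which then enters the nucleus and activates genes with TCF and LEF factors. Several of the activated genes act back on the pathway at the receptor (RNF43, ZNRF3), at Dishevelled (NKD1) or at the destruction complex (AXIN2). At the base of the colonic crypt, stem cells are marked by LGR5 and ASCL2, and high EPHB2 and CD44 extend over the proliferating cells above them.

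The labels were set beside the values of CPEB3 itself. At its brightest probe set the log2 intensity was 5.40, 5.35 and 5.37 in the arrays labelled CPEB3, against 5.38, 5.25 and 5.34 in the arrays labelled NC, and the groups overlapped (limma, Benjamini-Hochberg adjusted p = 0.695). The other 3 probe sets were lower in the arrays labelled CPEB3, the steepest by 1.44 on the log2 scale (limma adjusted p = 7.80e-05). Of these, 239765_at and 1555250_a_at lay below the median on all arrays. Both lost their call when each array was centred on its spike-ins (limma adjusted p = 0.176 and 0.517). Whether these probe sets read the transfected sequence was not tested, so they cannot settle the labels. No probe set rose where overexpression is labelled, and all directions given here are those of the labels. Epithelial markers EPCAM (11.04 to 11.17), KRT8 (9.78 to 10.05) and KRT19 (10.76 to 10.93) were bright on all 6 arrays, while those of the differentiated colon such as CDX2 (4.69 to 4.92) and LGALS4 (3.22 to 3.74) lay closer to the array medians of 3.89 to 3.93, and 2 of 11 epithelial markers were higher (KRT18 and KRT20) and 0 lower. Leukocyte markers, listed because CD44 and LEF1 are also made by leukocytes, had 14 of 15 genes measured, with 1 higher (ITGAM, whose other probe set was lower) and 0 lower at the brightest probe sets. Their intensities summed to 218 to 234 in the arrays labelled CPEB3 and 196 to 210 in those labelled NC. Of the 14, 8 lay below the median on all arrays, among them the pan-leukocyte gene PTPRC (1.47 to 1.74 against 1.34 to 1.64 for NC). CD3D, CD3E, CD4, CD79A and ITGAM lay above it on all arrays, CD79A at 5.28 to 5.32 against 4.99 to 5.29 for NC. In the 12 fibroblast and endothelial markers, 1 was higher and 0 lower at the brightest probe sets. The higher gene was DCN, at 1 of 7 probe sets, with a mean of 0.09 that did not pass. COL1A1 read 6.38 to 6.55 against 6.23 to 6.47 for NC at its brightest probe set, but was lower at 2 of 5. The sums were 205 to 214 against 192 to 201 for NC. The epithelial markers also summed higher, to 8596 to 8889 against 7799 to 7938 for NC. Of all genes, 8.32% were higher and 10.5% lower at the brightest probe set. The part of other cells in the results was not tested.

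Over the 30 probe sets, 3 were higher in the arrays labelled CPEB3 and 5 were lower (limma, Benjamini-Hochberg adjusted p under 0.05 over all probe sets). The called share was therefore 26.7%, beside 14.4% of all 54613 probe sets without controls (6.59% higher and 7.86% lower). In bulk RNA, fewer cells expressing a gene and less RNA per cell cannot be told apart. The members' share is not spread over the genes, because 5 of the 8 calls are CD44 probe sets. With the brightest probe set standing for each gene, AXIN2, SP5 and CD44 were higher, RNF43 was lower and 5 of 9 genes did not pass, beside 18.8% called among all genes. Of the 16 member probe sets above the median on all arrays, 7 were called (43.8%). Beside this, 24.1% were called among all probe sets whose mean lay above the median of such means, a looser filter. The 3 arrays of each group lay apart in 12 of the 30 probe sets (40.0%), beside 32.1% of all probe sets. Their median difference was 0.05 on the log2 scale, against 0.02 over all probe sets.

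**Figure D1:**
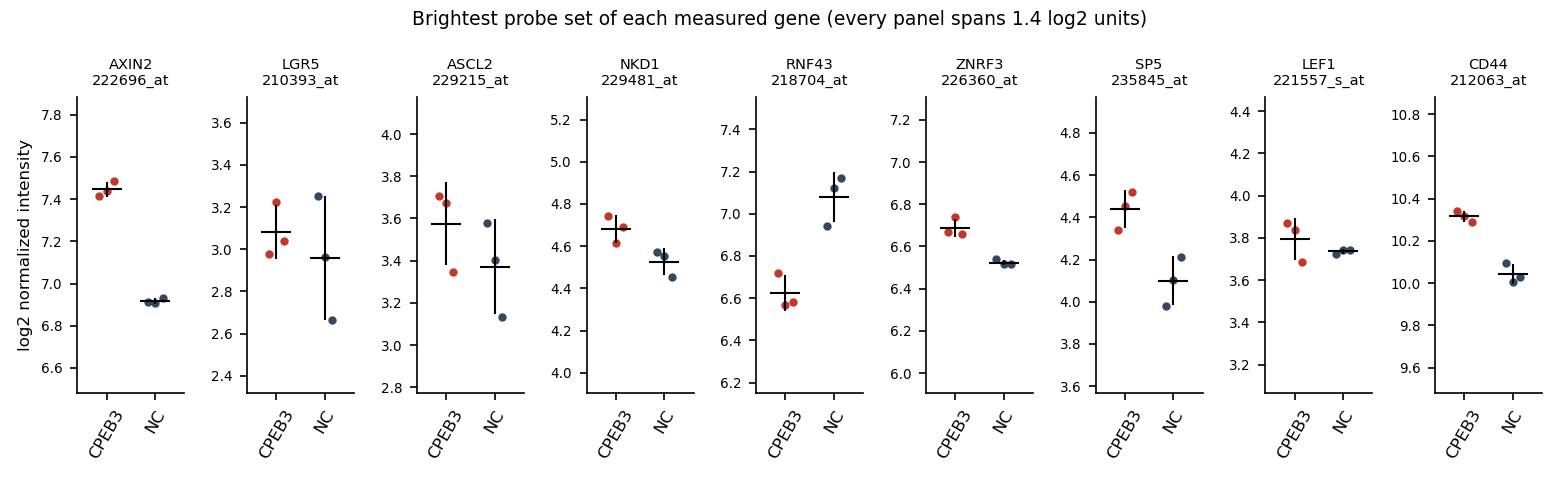
Log2 normalized intensity of the brightest probe set of each measured gene on each array labelled CPEB3 (red, left) and NC (blue-grey, right), with the mean and SD of 3 arrays as bars. All panels span the same number of log2 units around their own mean; AXIN2, SP5 and CD44 lie higher and RNF43 lower in the arrays labelled CPEB3, with no overlap, while LGR5, ASCL2 and LEF1 overlap.

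**Figure D2:**
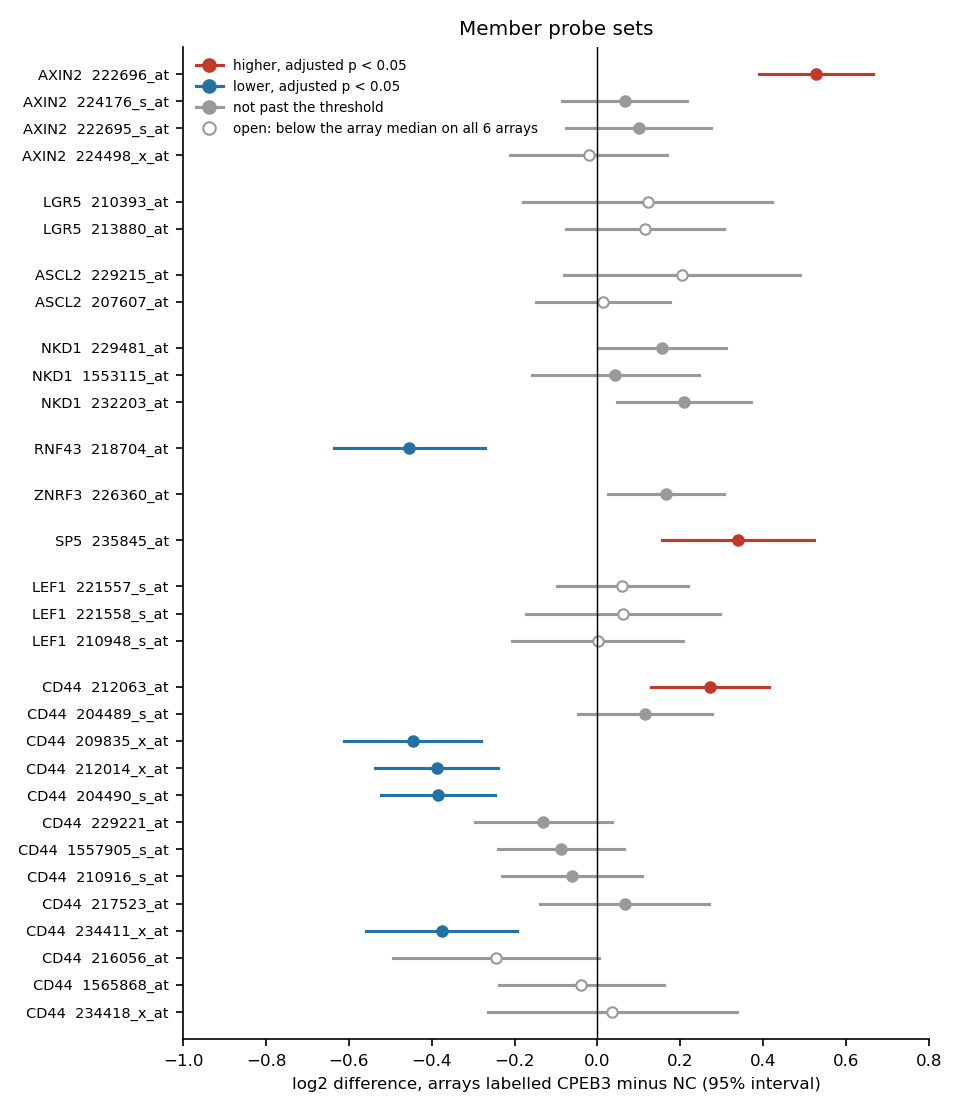
Log2 difference (arrays labelled CPEB3 minus NC) with its 95% interval for all 30 probe sets, by gene and with the brightest of each gene on top. Colour marks the 3 higher and 5 lower calls, open circles mark the 11 probe sets below the median on all 6 arrays, and the CD44 probe sets fall on both sides of 0.

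AXIN2 encodes a scaffold of the destruction complex and is itself switched on by beta-catenin, which makes it a widely used readout of the pathway. Its brightest probe set, 222696_at, read 7.41, 7.44 and 7.48 in the arrays labelled CPEB3 and 6.91, 6.91 and 6.93 in those labelled NC. The groups were separated by far more than the range within either of them. The difference was 0.53 (SE 0.06, 95% interval 0.39 to 0.67), or 1.44-fold, with limma adjusted p = 4.92e-04, where the median absolute difference of all probe sets was 0.11. The remaining 3 AXIN2 probe sets did not pass. 224176_s_at was 4.47, 4.38 and 4.39 in the arrays labelled CPEB3, against 4.34, 4.29 and 4.41 in the NC arrays, 222695_s_at differed by 0.10 and 224498_x_at by -0.02. These 3 ranked between 46.9% and 58.2% of the array on average, whereas 222696_at ranked at 88.2%. A test of unequal differences among the probe sets of a gene, added after the CD44 values were seen (limma diffSplice F test over 10523 genes, of which 17.6% were called), gave adjusted p = 0.00116 for AXIN2. With the mean of its 4 probe sets the AXIN2 difference shrank to 0.17 (limma adjusted p = 0.0427).

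NKD1 binds Dishevelled and dampens the signal. At 229481_at it read 4.75, 4.61 and 4.69 in the arrays labelled CPEB3, against 4.57, 4.55 and 4.45 in the NC arrays, a difference of 0.16 (95% interval 0.00 to 0.31). 232203_at read 4.05, 3.89 and 3.89 against 3.67, 3.74 and 3.79 for NC, a difference of 0.21. In both the arrays of the groups did not overlap, with all arrays labelled CPEB3 on the upper side, but neither passed (limma adjusted p = 0.179 and 0.0893). The last NKD1 probe set, 1553115_at, overlapped (difference 0.04, interval -0.16 to 0.25). NKD2, the paralog of NKD1, differed by -0.20 (limma adjusted p = 0.0954) at its only probe set. The same difference passed in the fit on gene means (limma adjusted p = 0.0436).

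RNF43 and ZNRF3 are related transmembrane ubiquitin ligases that remove Frizzled receptors from the cell surface, and R-spondins bound to LGR receptors relieve this brake. RNF43 read 6.72, 6.57 and 6.58 in the arrays labelled CPEB3 and 6.94, 7.12 and 7.17 in those labelled NC. Every array labelled CPEB3 lay below every NC array. It fell by 0.45 on the log2 scale (SE 0.08, 1.37-fold lower; limma adjusted p = 0.00510), and by 0.28 when each array was centred on its spike-ins (limma adjusted p = 0.0359). ZNRF3 read 6.67, 6.74 and 6.66 in the arrays labelled CPEB3, against 6.54, 6.52 and 6.51 in the NC arrays. Its groups did not overlap either, with the arrays labelled CPEB3 on top. The difference of 0.17 (95% interval 0.03 to 0.31) did not pass (limma adjusted p = 0.116). The same difference passed in the fits on gene means and without dim probe sets (limma adjusted p = 0.0398 and 0.0404). In those fits only the variance estimates and the adjustment changed for this gene. With spike-in centring it became 0.35 and passed (limma adjusted p = 0.0131). Whether RNF43 and ZNRF3 differ from each other was not tested, and each rests on a single probe set.

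SP5, a zinc-finger factor of the Sp family that binds many Wnt target genes and damps their activation, is a direct target of beta-catenin. It read 4.34, 4.46 and 4.52 in the arrays labelled CPEB3, against 3.98, 4.10 and 4.21 in those labelled NC. The lowest array labelled CPEB3 thus lay above the highest NC array, though by little compared with the spread inside each group. The difference was 0.34 (SE 0.08, 95% interval 0.16 to 0.52), 1.27-fold, with limma adjusted p = 0.0216. It missed the threshold without CPEB3 replicate 2 (0.33, limma adjusted p = 0.0726), CPEB3 replicate 3 (0.30, 0.0762), NC replicate 1 (0.28, 0.0667) or NC replicate 2 (0.34, 0.0572), and became 0.52 with spike-in centring. SP8, a related Sp family gene in the lists used here, differed by 0.01 at the brighter of its 2 probe sets and was called lower at the other, with a mean difference of -0.33 (limma adjusted p = 0.00333).

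Promoter windows of 5 of the 10 genes were in the RefSeq table (GRCh38.p14; 250 bases before to 50 after a start), which lacked AXIN2, LGR5, ASCL2, NKD1 and ZNRF3. The windows of the called genes SP5, RNF43 and CD44 are shown because SP5 and CD44 hold probe sets that were higher and RNF43 and CD44 probe sets that were lower. CTTTGAA and CTTTGAT, forms of the core that TCF and LEF factors bind, were searched on both strands, they cannot overlap each other on the same strand, and matches are printed in capitals. SP5 lies at chr2:170715087-170715386 (plus strand), the more upstream of the 2 RNF43 windows at chr17:58417485-58417784 (minus strand) and CD44 at chr11:35138921-35139220 (plus strand), all written 5′ to 3′ in the direction of the gene.
SP5: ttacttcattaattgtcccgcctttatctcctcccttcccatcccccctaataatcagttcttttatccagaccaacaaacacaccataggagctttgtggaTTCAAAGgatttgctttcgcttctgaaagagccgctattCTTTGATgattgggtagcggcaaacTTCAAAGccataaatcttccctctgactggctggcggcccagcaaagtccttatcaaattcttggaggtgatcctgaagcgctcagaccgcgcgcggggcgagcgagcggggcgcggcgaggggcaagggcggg
RNF43: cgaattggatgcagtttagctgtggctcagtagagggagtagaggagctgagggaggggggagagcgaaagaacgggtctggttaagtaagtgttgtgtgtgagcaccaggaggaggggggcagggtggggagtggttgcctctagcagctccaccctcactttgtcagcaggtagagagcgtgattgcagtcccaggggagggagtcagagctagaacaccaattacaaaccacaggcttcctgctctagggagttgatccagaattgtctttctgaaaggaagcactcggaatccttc
CD44: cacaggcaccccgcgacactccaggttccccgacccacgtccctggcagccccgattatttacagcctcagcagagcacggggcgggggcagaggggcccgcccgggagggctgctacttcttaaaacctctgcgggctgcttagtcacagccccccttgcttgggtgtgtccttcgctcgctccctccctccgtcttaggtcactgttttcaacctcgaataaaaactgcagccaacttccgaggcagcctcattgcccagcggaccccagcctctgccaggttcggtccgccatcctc
SP5 held 3 matches, which begin 148, 109 and 84 bases before the start. The outer matches are CTTTGAA on the opposite strand and the middle one is CTTTGAT on the gene's strand. Of all 35116 windows in the table, 6.86% held at least 1 match and 9 (0.0256%) held 3 or more. The letters were not found in the other 6 windows of these genes (RNF43, LEF1, EPHB2 and CD44), which says nothing about sites outside them.

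LGR5, the R-spondin receptor that marks crypt-base stem cells, was dim. At 210393_at it read 2.98, 3.22 and 3.04 in the arrays labelled CPEB3, against 3.25, 2.96 and 2.66 for NC, and at 213880_at 0.84, 0.86 and 1.06 against 0.72, 0.92 and 0.78 for NC. The groups overlapped at both, and both probe sets lay below the median of all 6 arrays. The differences of 0.12 (95% interval -0.18 to 0.42) and 0.11 (-0.08 to 0.30) did not pass (limma adjusted p = 0.618 and 0.433).

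ASCL2, the basic helix-loop-helix factor of crypt stem cells, was equally dim. 229215_at read 3.71, 3.67 and 3.35 in the arrays labelled CPEB3, against 3.58, 3.40 and 3.13 for NC, with overlapping groups, a difference of 0.20 and a wide interval of -0.08 to 0.49. 207607_at read 0.97, 1.05 and 0.89 against 1.02, 0.88 and 0.96 for NC, near the bottom of the array. No detection call was used, so whether these probe sets see their transcripts was not tested, and the intervals leave room for changes of up to 0.49 at 229215_at.

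LEF1, a TCF family factor that beta-catenin both binds and induces in colon cancer, had 3 probe sets, all below the median on all arrays. The brightest, 221557_s_at, read 3.87, 3.84 and 3.68 in the arrays labelled CPEB3, against 3.72, 3.74 and 3.74 for NC. At 210948_s_at 4 of the 6 arrays hold the same value of 1.59, so that probe set carries little information. All 3 groups of values overlapped, with differences between 0.00 and 0.06 and limma adjusted p-values from 0.642 to 0.996.

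CD44 encodes a surface receptor for hyaluronan whose pre-mRNA is spliced into a standard and many variant forms, and it is the member with the most probe sets. Of 13 probe sets, 1 was higher, 4 were lower and 8 did not pass. The brightest, 212063_at, read 10.34, 10.32 and 10.29 in the arrays labelled CPEB3, against 10.10, 10.01 and 10.03 in those labelled NC, a difference of 0.27 (SE 0.06, 1.21-fold higher; limma adjusted p = 0.0188). The next brightest, 204489_s_at, read 9.26, 9.37 and 9.16 against 9.13, 9.17 and 9.14 for NC and overlapped (difference 0.11, interval -0.05 to 0.28). Thus the brightest pair lay on the upper side, with a call for the brightest alone.

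Of the 4 lower probe sets, 3 followed directly in brightness. 209835_x_at read 8.64, 8.60 and 8.46 in the arrays labelled CPEB3, against 9.002, 8.95 and 9.08 in those labelled NC, a difference of -0.45 (limma adjusted p = 0.00344). 212014_x_at read 8.60, 8.56 and 8.46 against 8.90, 8.93 and 8.95 for NC, a difference of -0.39 (limma adjusted p = 0.00397). In both, all arrays labelled CPEB3 lay under all NC arrays. 204490_s_at read 8.07, 8.07 and 8.01 in the arrays labelled CPEB3, against 8.43, 8.43 and 8.45 for NC, again -0.39 (limma adjusted p = 0.00279). 234411_x_at, near the array medians, read 3.70, 3.44 and 3.66 against 3.93, 3.99 and 3.998 for NC, a difference of -0.38 (limma adjusted p = 0.0131). So 4 probe sets gave falls of similar size, from 0.38 to 0.45, over a wide range of brightness.

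**Figure D3:**
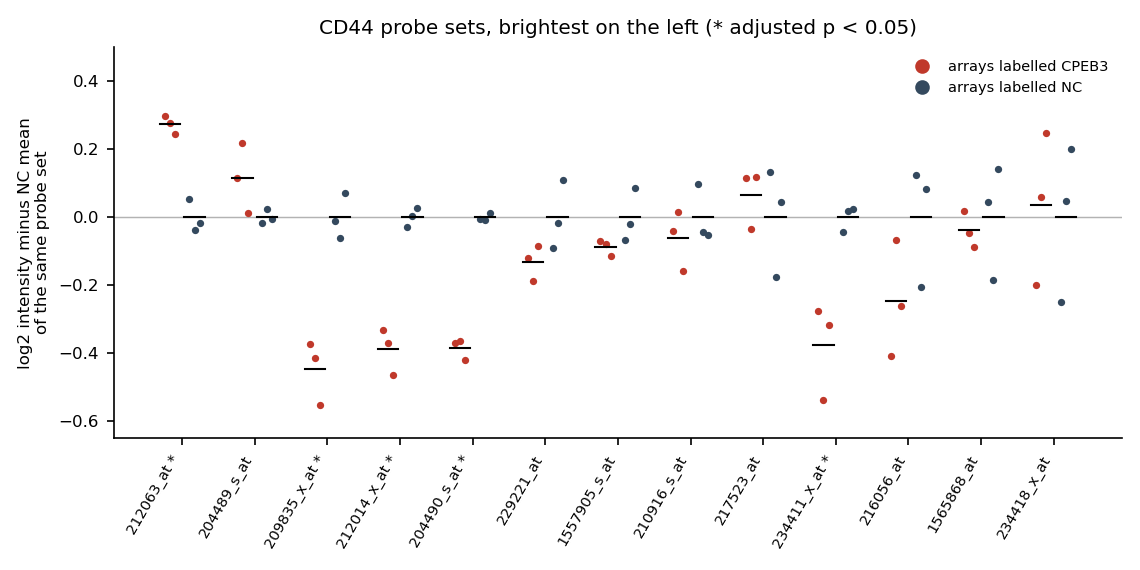
Log2 intensity of each array minus the NC mean of the same probe set for the 13 CD44 probe sets, ordered by brightness, with group means as black bars and called probe sets starred. The arrays labelled CPEB3 (red) lie above the NC arrays (blue-grey) at 212063_at and below them at 209835_x_at, 212014_x_at, 204490_s_at and 234411_x_at.

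The gap between 212063_at and the mean of the 4 lower probe sets, a description chosen after the values were seen, was 3.09, 3.15 and 3.14 in the arrays labelled CPEB3 and 2.53, 2.43 and 2.41 in those labelled NC. A gap within an array is not altered by any constant added to that array. Over all 13 probe sets the diffSplice F test of unequal differences gave adjusted p = 2.01e-05, and it kept its call without each array in turn (adjusted p from 2.55e-04 to 0.00116). Taken against the other CD44 probe sets, 212063_at stood higher by 0.43 (limma diffSplice adjusted p = 7.42e-04) and the lower 4 stood lower by 0.27 to 0.34, each past the threshold (the largest adjusted p was 0.0497), beside 10.8% of such probe sets called over all genes. These probe sets had already been called on the same arrays, so this is no separate support. All 4 lower probe sets are among the 8 whose names (_s_at, _x_at) mark possible matches to several transcripts, and 212063_at is among the 5 others. Among those 5 alone the F test still passed (adjusted p = 0.0384). Probe sets of the same gene can share transcript sequence and are not independent, and which CD44 exons each reads is not analysed here.

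The remaining 8 CD44 probe sets differed by -0.25 to 0.11, and 3 of the 13 lay below the median on all arrays. With the mean of all 13 the CD44 difference was -0.13 (limma adjusted p = 0.104), so the sign for the gene as a whole depends on the probe set. The rise at 212063_at missed the threshold without CPEB3 replicate 1 (0.26, limma adjusted p = 0.0637), CPEB3 replicate 2 (0.27, 0.0647), NC replicate 2 (0.25, 0.0667) or NC replicate 3 (0.26, 0.056), and became 0.45 with spike-in centring. Under that centring the falls at 212014_x_at (-0.21), 204490_s_at (-0.21) and 234411_x_at (-0.20) no longer passed (limma adjusted p = 0.0893, 0.0877 and 0.0927), while 209835_x_at still did (-0.27, limma adjusted p = 0.0443).

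**Figure D4:**
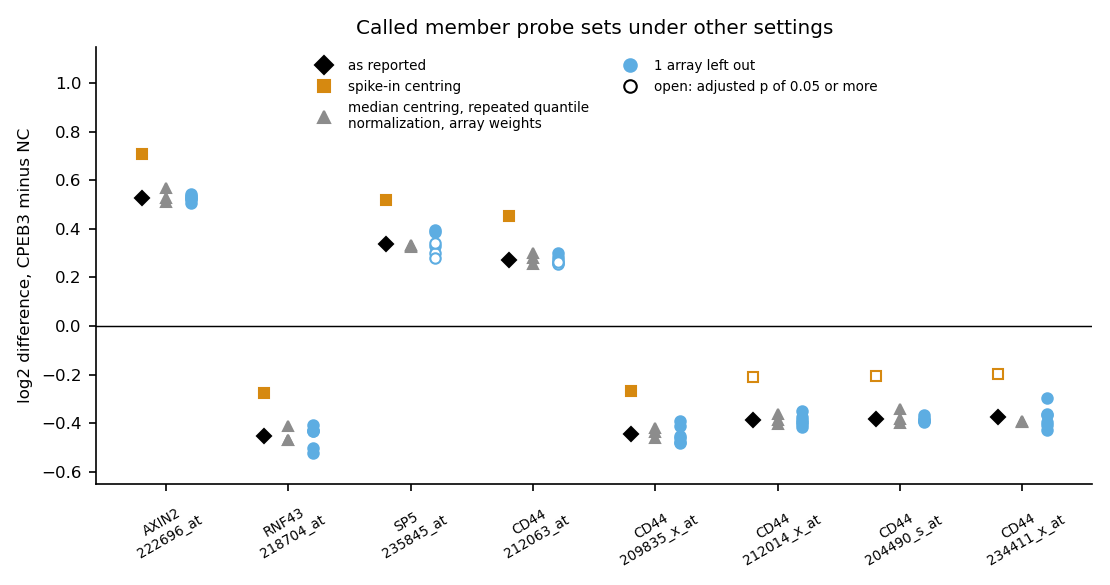
Log2 difference (arrays labelled CPEB3 minus NC) of the 8 called member probe sets as reported (diamond), with spike-in centring (square), with other scaling or array weights (triangles) and with 1 array left out (circles). Open symbols have an adjusted p of 0.05 or more: they appear at SP5 and 212063_at when an array is left out and at 3 lower CD44 probe sets under spike-in centring, and no symbol crosses 0.

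Around the members, 10 lists of other Wnt, crypt, Eph and CD44-related genes held 187 genes, of which 176 were measured. At the brightest probe set of each gene, 12 were higher (6.82%, beside 8.32% of all genes) and 28 lower (15.9%, beside 10.5%). Their median difference was -0.0012 against 0.02 over all genes. The same 8.32% and 10.5% of all genes stand beside the counts of each list below. With spike-in centring 43 of the 176 were higher and 19 lower, where the same centring called 33.7% of all genes higher and 4.73% lower. In the fit on gene means, 8 of the 40 called genes did not pass (3 higher and 5 lower), and 7 others did, of which 4 were higher (WNT2B, FBXW11, TLE5 and EPHA1) and 3 lower (NKD2, TCF7L2 and SP8). TLE5 and NKD2 have 1 probe set each, so their differences were the same in both fits.

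Among Wnt ligands and the genes that release them, 1 of 18 was higher and 1 lower. WNT16 read 6.34, 6.18 and 6.41 in the arrays labelled CPEB3, against 7.52, 7.36 and 7.30 in those labelled NC, with all arrays labelled CPEB3 below. It was 2.11-fold lower (limma adjusted p = 4.37e-05), and its other probe set was lower too (limma adjusted p = 0.00281). WLS, which carries Wnt proteins to the cell surface, rose by 0.28.

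Among receptors and the R-spondin axis, 2 of 20 were higher and 4 lower. LGR4, the relative of LGR5 that also binds R-spondins, read 4.41, 4.56 and 4.77 in the arrays labelled CPEB3, against 3.82, 3.64 and 3.71 in those labelled NC. That is a rise of 0.86 (1.81-fold; limma adjusted p = 3.85e-04) at 1 of its 3 probe sets, with the other 2 not past the threshold (limma adjusted p = 0.275 and 0.288) and a difference of 0.40 for their mean. The Frizzled receptor genes FZD7 (-0.53), FZD4 (-0.45, or -0.21 over both its probe sets), FZD2 (-0.32) and FZD6 (-0.32) fell, and ROR1, a receptor for non-canonical Wnt signals, rose by 0.34 at 1 of its 3 probe sets, which was below the median on all arrays (0.18 over all 3). None of the 13 secreted antagonists passed limma's test (4 at an unadjusted p under 0.05), among them DKK1 (-0.03) and NOTUM (-0.15).

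In the destruction complex and Dishevelled list, 1 of 20 was higher and 2 lower. TNKS2, a tankyrase that marks AXIN proteins for degradation, read 4.62, 4.50 and 4.46 in the arrays labelled CPEB3, against 5.31, 5.51 and 5.51 for NC. This 1.89-fold fall (limma adjusted p = 8.52e-05) was called at 2 of its 4 probe sets, and the mean of all 4 differed by -0.39. The kinase gene CSNK1A1 fell by 0.42 (-0.23 over its 13 probe sets), and BTRC, which recognises phosphorylated beta-catenin, rose by 0.28, though its 5 probe sets averaged 0.04 and did not pass. The core genes APC (0.09, 95% interval -0.09 to 0.27), AXIN1 (-0.04, -0.19 to 0.11) and CTNNB1, which encodes beta-catenin (0.06, -0.08 to 0.20), did not pass. Of 18 TCF factors and cofactors, 0 were higher and 3 lower, namely TCF7L1 (-0.52), the acetyltransferase genes EP300 (-0.51) and CREBBP (-0.42, where its 4 probe sets averaged -0.16 and did not pass). TCF7L2, the main TCF factor of the colon, differed by -0.23 (limma adjusted p = 0.0607) at its brightest probe set, while 3 of its 7 probe sets were called lower and the mean of all 7 passed (-0.26, limma adjusted p = 0.0132).

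Other genes reported as Wnt targets had 2 of 20 higher and 7 lower, with a median of -0.15. PLAUR, the urokinase receptor, read 6.41, 6.41 and 6.44 in the arrays labelled CPEB3 and 8.21, 8.23 and 8.22 in those labelled NC, 3.48-fold lower at that probe set and lower at all 3. JUN, VEGFA and FOSL1 fell by 1.24, 1.10 and 0.97, MYC by 0.57, SOX9 by 0.33 and TIAM1 by 0.33. By contrast the cell cycle gene CCND1 rose by 0.28 and CCN4 by 0.39, although the CCN4 probe sets averaged 0.13 and did not pass. Averaged over its 4 probe sets VEGFA differed by -0.61. AXIN2 (at 1 of its 4 probe sets) and SP5 were higher, as were 2 of 20 genes here, beside 8.32% of all genes. The 7 lower genes stood beside 10.5% of all genes. CCN4, 1 of the 2 higher genes of this list, lay below the median on all arrays.

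Of 18 further crypt stem cell genes, 2 were higher and 4 lower, beside 8.32% and 10.5% of all genes. MSI2 rose by 0.31, with 3 of its 10 probe sets called, and PTPRO by 0.26, with 1 of 3 called. KLF5, SOX9, TERT and CDCA7 fell by 0.45 to 0.30. Over both its probe sets CDCA7 fell by 0.17, and the mean of both TERT probe sets did not pass (-0.09). OLFM4, a stem cell marker of the human crypt, lay near the bottom of the array at 1.23 against 1.29 for NC, and SMOC2 differed by 0.08. Of 19 genes of differentiated colon cells, KRT20 and FABP1 were higher and CA2 lower. KRT20, a keratin of mature surface cells, read 5.06, 5.05 and 5.27 in the arrays labelled CPEB3, against 4.25, 4.27 and 4.25 in those labelled NC, a 1.83-fold rise (limma adjusted p = 7.98e-05) on its single probe set. FABP1 was dim (2.98 against 2.65 for NC), and the mean of both its probe sets did not pass (0.12).

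Eph receptors and ephrins, which keep crypt compartments apart and to which EPHB2 belongs, had 0 of 18 higher and 4 lower at their brightest probe sets. EPHA2 fell by 0.64, EFNA4 by 0.49, EFNA2 by 0.47 and EPHB3 by 0.29, but averaged over probe sets EFNA2 (-0.10) and EPHB3 (-0.09) did not pass. EPHA1 differed by 0.02 at its brightest probe set, was called higher at 1 of its 3 and passed with a mean of 0.23 (limma adjusted p = 0.0150). The ephrin ligands of EPHB receptors, EFNB1 (0.03) and EFNB2 (0.01), did not pass. Of 14 CD44 partners and splicing regulators, 2 were higher (NF2 and HYAL3) and 3 lower (SPP1, HMMR and HAS3). NF2, which encodes the CD44-binding tumour suppressor merlin, rose by 0.50 (0.20 with the mean of its 8 probe sets). HMMR, another hyaluronan receptor that is made in dividing cells, fell by 0.52, HAS3, a hyaluronan synthase, by 0.45 (both its probe sets averaged -0.18, which did not pass) and SPP1, the CD44 ligand osteopontin, by 0.77 (-0.30 over both its probe sets). ESRP1, the epithelial splicing regulator that favours CD44 variant exons, differed by -0.02 (95% interval -0.16 to 0.13).

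**Figure D5:**
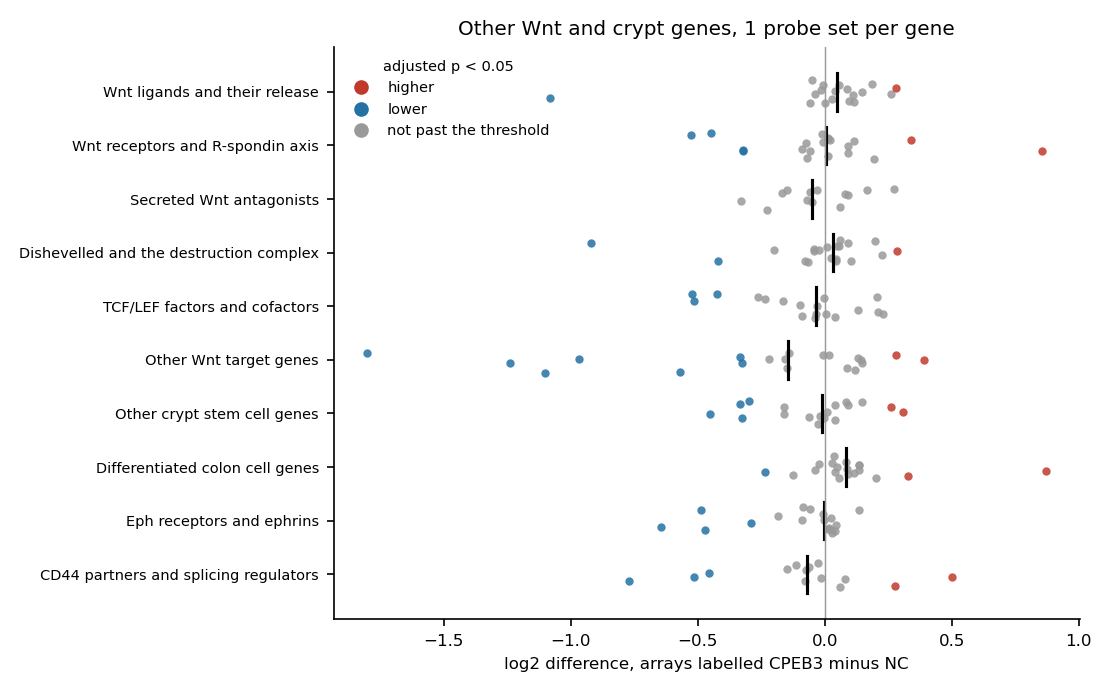
Log2 difference (arrays labelled CPEB3 minus NC) at the brightest probe set of each measured gene in the 10 lists, 1 point per gene with random vertical offset and the list median as a black line. Called genes are red where higher and blue where lower; PLAUR, JUN and VEGFA reach furthest to the left, LGR4 and KRT20 furthest to the right, and all medians lie between -0.15 and 0.08.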

How the data were processed

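The authors deposited normalized intensities, 1 for each probe set of each array, from RMA per the submitters' processing notes. The values are linear although RMA gives log2, and no software version was found. RMA gives the probe values of all arrays 1 distribution before they are summarized per probe set. A change in the RNA content of cells is therefore not visible. Here log2 was taken, 62 control probe sets were set aside, and each of 54613 probe sets was tested with limma 3.58.1 in R 4.3.3 (group as the only term, two-sided, Benjamini-Hochberg over all probe sets, threshold 0.05; 4 residual and 5.53 prior degrees of freedom). With 3 arrays a group, precision is set by the number of arrays. Levels of different probe sets are not compared as abundance; rank and the array median describe brightness only.

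Of the probe sets, 41091 had 1 symbol in the platform annotation, 1801 several and 11721 none. Lists used a gene's brightest probe set. Symbols were compared through Entrez identifiers with RefSeq, and 0 changed. No build is given for the values. Same-numbered arrays of both groups did not deviate together (r = 0.00 to 0.09), so no pairing was used. All member probe sets were named, with up to 4 called genes per list and a set of fixed names; FZD2, FZD6, TIAM1, CCN4, PTPRO, CDCA7, HYAL3, EPHA1, WNT2B, FBXW11, TLE5, COL1A1 and the uncalled identity markers were named after their values were seen, and TCF7 and ESRP2 were not analysed here. The members and lists were chosen with earlier results of these data known, and the diffSplice test was added after the data were seen.

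On simulated data for the comparison of 54613 probe sets, limma recovered 0% of changes of 0.25, 60% of 0.5, 88% of 1 and 100% of 2 on the log2 scale, with 2 false calls among 126. Only 50 probe sets were changed at each size, while 7891 were called in the data, so the simulated adjustment was stricter. The shares recovered therefore do not carry over to the data, where KRT18 was called at a difference of 0.26. The simulated diffSplice test on 10523 genes recovered 0% of genes with a probe set changed by 0.25, 51.7% at 0.5, 93.1% at 1 and 100% at 2, with 9 false calls among 90. The changed genes were also few, 29 to 39 for each size beside 1853 called in the data, so the same limit holds. Alternatives were the means of probe sets, the brightest set per gene, no sets matching several transcripts, no dim sets, median, quantile and spike-in centring, a trend, robust variances, weights for arrays, a block on replicate number, an adjusted p of 0.01 and leaving out each array. Spike-ins (18 probe sets) averaged 9.57 (CPEB3) and 9.75 (NC) on the log2 scale, so centring on them moves every difference up by 0.18. They are the Bio and Cre hybridization controls of the array, so centring on them does not show the RNA content of cells. Figures were drawn with matplotlib 3.10.9.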

Additional observations from a re-analysis of the deposited data

How the results depend on the processing

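AXIN2 (222696_at), RNF43 and CD44 209835_x_at kept their direction and call in every alternative that could give a value (18, 18 and 15 alternatives). For AXIN2, 1 of these was the mean of its 4 probe sets (0.17), which is not a value of 222696_at itself. Counts moved more. With the threshold at 0.01, member probe sets numbered 1 higher, all probe sets 1494 higher and 2374 lower, and list genes 3 higher and 18 lower, fewer by construction. The brightest set per gene gave 1 member gene lower, with 2146 and 2470 genes higher and lower in all; the means of probe sets gave 1 member gene lower, with 1974 and 2122; and without sets that can match several transcripts 1 member set was lower, with 2110 and 2292 in all and 6 and 12 list genes. Spike-in centring gave 11 member sets higher and 2 lower, 17880 and 1910 of all sets (3597 and 4294 as reported) and 43 list genes higher; the cause of the spike-in gap was not tested. Without each array in turn, member sets higher ranged from 1 to 2, all sets higher from 2204 to 2872 and list genes higher from 6 to 12. The replicate number as a block left 3 member sets higher and 5 lower, with 10 and 27 list genes higher and lower, and same-numbered arrays did not correlate.

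Signs turned in these cases, and the cause was not tested. With the mean of probe sets CD44 became -0.13, against the 0.27 of 212063_at, and CPEB3 became -0.50, against the 0.05 of 243651_at. Median centring turned ASCL2 207607_at to -0.0017 and LEF1 210948_s_at to -0.014, which also became -0.028 with repeated quantile normalization and -0.028 with array weights. Spike-in centring turned AXIN2 224498_x_at to 0.16 and CD44 229221_at, 1557905_s_at, 210916_s_at and 1565868_at to 0.049, 0.091, 0.12 and 0.14. Leaving out each array in turn, the difference ranged across 0 for ASCL2 207607_at (-0.028 to 0.053), LEF1 210948_s_at (-0.092 to 0.094) and 221558_s_at (-0.019 to 0.18), AXIN2 224498_x_at (-0.070 to 0.046), NKD1 1553115_at (-0.033 to 0.13), LGR5 210393_at (-0.026 to 0.27), and CD44 234418_x_at (-0.088 to 0.15), 217523_at (-0.023 to 0.13) and 1565868_at (-0.13 to 0.032). Of these member probe sets 212063_at alone was called in the report. The AXIN2 probe set test could not be run without sets matching several transcripts, since 1 set remains. All probe sets of LGR5, ASCL2 and LEF1 lay below the array medians, and no detection call was used.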

Other observations

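Calls in both directions within a gene, as in CD44, were seen in 90 of the 10523 genes with several single-gene probe sets (0.855%). This share was not matched for the number of probe sets, of which CD44 has 13, and more sets give more room for both directions. ITGAM was another gene with calls in both directions among the lists used here, with 4.605, 4.73 and 4.59 in the arrays labelled CPEB3 against 4.35, 4.22 and 4.39 for NC at 205785_at, and 2.77, 2.72 and 2.63 against 3.09, 3.43 and 3.14 for NC at the dimmer 205786_s_at. Its differences were opposite in sign and both past limma's threshold (limma adjusted p = 0.0176 and 0.0062).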
